A study of Mus musculus with 6 samples.

Results

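The 35 genes described here act in DNA replication and S phase, and were chosen by name from the gene symbols of a count table of sorted mouse hair follicle stem cells (HFSC). All 35 were among its 23377 symbols and among the 13134 genes with enough counts to test. The tested cells, called RingKO, carry the genotype Ring1a/b-/-, and the cells they are set against are wild type (WT). Both genotypes are of the strain C57BL/6 with hair follicle as the tissue, and each has 2 RNA-seq libraries. PRC1 is a Polycomb complex that places ubiquitin on histone H2A, and either Ring1a or Ring1b serves as its ubiquitin ligase. Each library was made from polyadenylated RNA of 3000 sorted cells with SMART-seq2, which copies full-length transcripts and amplifies them by PCR. The sources used here do not give the age of the mice, the sort markers, the Cre driver or the time since deletion. Nor do they say whether each library is a mouse of its own, and a p-value therefore covers the spread between libraries only, which may be technical.

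Total counts were 4844381 and 7740945 in the RingKO libraries and 2785843 and 3056593 in the WT libraries, so the RingKO libraries were the deeper pair. Members held between 96 and 1898 counts in any library. Levels are given as CPM, counts scaled to library sizes that were adjusted by the trimmed mean of M values (TMM). The Ring1a gene, Ring1, had 15.5 and 18.4 CPM in RingKO against 31.9 and 29.4 CPM in WT libraries, and the Ring1b gene, Rnf2, had 151 and 153 CPM against 144 and 87.8 CPM. Which exons were deleted is not stated in the sources used here, and whole-gene counts therefore check no label. Of 10 follicle stem cell markers all had counts in both genotypes, and their summed level was 1701 and 1460 CPM in RingKO against 1591 and 1594 CPM in WT libraries. At an unadjusted p under 0.05, Lgr5, Sox9 and Nfatc1 were higher in RingKO and Krt15 was lower, and Nfatc1 had 0 counts in WT replicate 1. Without overlap between genotypes, 4 of the 10 were higher and 3 lower, where 24.8% and 22.3% of all genes were. The 3 lower were Krt15, Krt14 and Cd34. Cd34 had 15.3 and 2.61 CPM in RingKO against 24.3 and 20.4 CPM in WT libraries.

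Replication starts at origins, where Cdc6 and Cdt1 load the ring-shaped Mcm2 to Mcm7 helicase in G1. At the entry to S phase, kinases, among them the partner of cyclin E, let Cdc45 and the GINS proteins join the ring and start it. Polymerases held by the Pcna clamp then copy both strands. Many of these genes are known targets of E2F factors and are transcribed as cells enter S phase, and in the growing follicle the rapidly dividing cells sit at its base. In bulk libraries, fewer cells in S phase and less of these RNAs per cell cannot be told apart.

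The promoters of the members that the results turn on are given first, as RefSeq windows on GRCm38.p6 that run from 250 bases before the gene's start to 50 bases after it. They show the 4 members of lowest p (Rrm2, Tyms, Pcna and Rrm1), then Mcm6 for its E2F matches and Chaf1a as a member that was higher in RingKO. The choice of Mcm6 and Chaf1a was made after their values were seen. Capitals mark matches to an E2F motif, a CCAAT box or a CHR motif, defined after the sequences. The windows lie at chr12:24708004-24708303 on the plus strand (Rrm2), chr5:30073576-30073875 on the minus strand (Tyms), chr2:132253131-132253430 on the minus strand (Pcna), chr7:102441445-102441744 on the plus strand (Rrm1), chr1:128359656-128359955 on the minus strand (Mcm6) and chr17:56040166-56040465 on the plus strand (Chaf1a).
Rrm2: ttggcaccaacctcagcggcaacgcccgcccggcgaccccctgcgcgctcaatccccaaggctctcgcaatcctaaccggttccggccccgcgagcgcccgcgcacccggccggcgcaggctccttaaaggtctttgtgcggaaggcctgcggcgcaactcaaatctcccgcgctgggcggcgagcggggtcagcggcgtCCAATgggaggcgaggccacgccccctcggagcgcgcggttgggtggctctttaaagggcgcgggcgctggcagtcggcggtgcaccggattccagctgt
Tyms: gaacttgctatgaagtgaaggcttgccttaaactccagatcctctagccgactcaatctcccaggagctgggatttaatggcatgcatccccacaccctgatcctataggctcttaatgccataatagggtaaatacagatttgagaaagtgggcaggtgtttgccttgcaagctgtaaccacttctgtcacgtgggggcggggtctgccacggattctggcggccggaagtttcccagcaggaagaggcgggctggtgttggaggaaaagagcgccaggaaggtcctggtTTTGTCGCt
Pcna: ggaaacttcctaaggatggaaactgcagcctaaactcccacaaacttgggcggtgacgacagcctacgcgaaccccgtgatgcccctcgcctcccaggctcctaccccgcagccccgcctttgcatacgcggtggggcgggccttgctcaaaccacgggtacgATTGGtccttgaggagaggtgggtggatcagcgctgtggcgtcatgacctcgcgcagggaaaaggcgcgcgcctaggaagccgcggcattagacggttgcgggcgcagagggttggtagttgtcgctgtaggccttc
Rrm1: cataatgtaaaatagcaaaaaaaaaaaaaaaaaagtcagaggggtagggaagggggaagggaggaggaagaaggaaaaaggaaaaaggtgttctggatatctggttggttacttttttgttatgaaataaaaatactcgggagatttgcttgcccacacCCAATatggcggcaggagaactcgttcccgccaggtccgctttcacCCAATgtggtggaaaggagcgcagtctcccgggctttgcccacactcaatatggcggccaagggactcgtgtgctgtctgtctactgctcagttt
Mcm6: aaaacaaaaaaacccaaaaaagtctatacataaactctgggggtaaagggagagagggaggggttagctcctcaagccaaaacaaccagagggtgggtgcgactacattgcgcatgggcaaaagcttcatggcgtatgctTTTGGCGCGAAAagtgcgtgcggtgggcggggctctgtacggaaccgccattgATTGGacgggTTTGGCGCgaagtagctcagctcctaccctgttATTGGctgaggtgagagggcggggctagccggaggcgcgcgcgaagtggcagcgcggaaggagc
Chaf1a: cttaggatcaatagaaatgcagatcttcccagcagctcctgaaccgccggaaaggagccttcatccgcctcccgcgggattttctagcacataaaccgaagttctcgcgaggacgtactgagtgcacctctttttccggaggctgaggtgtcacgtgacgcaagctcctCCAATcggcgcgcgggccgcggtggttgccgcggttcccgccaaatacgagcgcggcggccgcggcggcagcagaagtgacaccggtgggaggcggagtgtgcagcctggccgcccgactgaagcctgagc

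Motifs were searched on both strands as TTTNNCGC for E2F, CCAAT for the CCAAT box bound by NF-Y, and TTTGAA for the cell cycle homology region (CHR) known from mitosis genes. The Mcm6 window held 3 E2F matches, of which the pair at 110 and 106 bases upstream of the start overlapped, and a further match lay 47 bases upstream. Tyms had 1 E2F match, 41 bases downstream of the start. In the Rrm2, Pcna, Rrm1 and Chaf1a windows these letters for E2F were not found. A CCAAT box stood 50 bases upstream in Rrm2, 87 in Pcna, 91 and 45 in Rrm1, 57 and 14 in Mcm6 and 81 in Chaf1a. Over the 33 windows of the 29 members in the table, 33.3% held an E2F match, against 8.22% of the 12504 windows of genes tested and 5.17% of all 32851 windows. For CCAAT the shares were 57.6%, 37.5% and 37.4%, and for CHR 9.09%, 11.9% and 17.9%. A match is a description of letters and was not tested as a binding site.

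**Figure D1:**
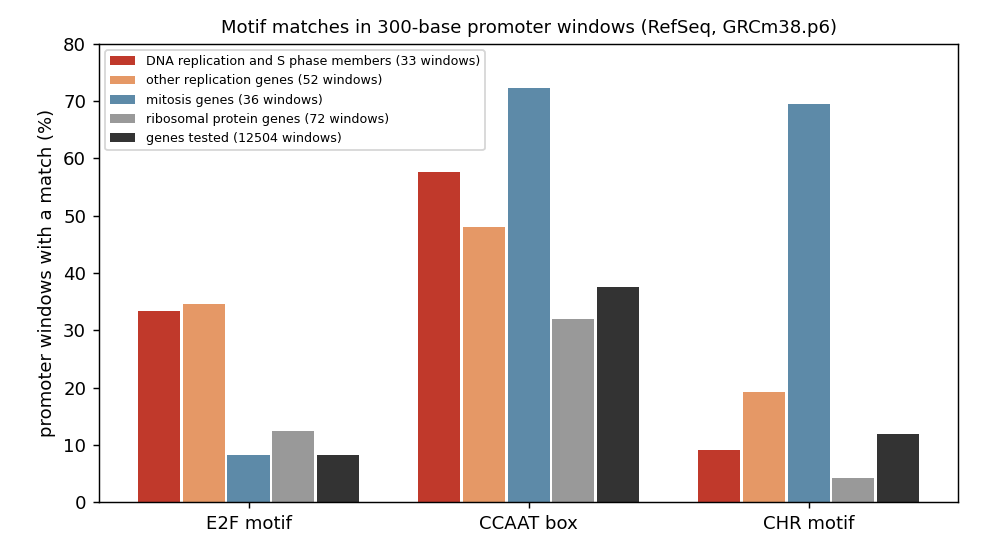
Share of 300-base promoter windows (vertical axis, percent) that hold a match to each of 3 motifs (horizontal axis), with a bar for each gene group. Members and other replication genes have E2F matches in 33.3% and 34.6% of windows, mitosis genes in 8.33%, while CHR matches stand in 69.4% of the windows of mitosis genes and 9.09% of those of members.

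Most members stood lower in RingKO than in WT libraries, by less than 2-fold, and no member passed the quasi-likelihood test of edgeR once p-values were adjusted by Benjamini-Hochberg over all genes. The fitted log2 fold change of RingKO over WT was below 0 for 29 of the 35, with a median of -0.36 and a range of -0.91 (Rfc5) to 0.73 (Chaf1a). Over all genes tested the median was 0.03 and 47.7% were below 0. The lowest adjusted p of a member was 0.158, and 0.0609% of all genes passed an adjusted p of 0.05. Without adjustment, 9 members were lower and 1 was higher at p under 0.05, where the shares over all genes were 8.16% lower and 8.47% higher. The 9 are 25.7% of the members. Both RingKO libraries lay below both WT libraries for 16 members, or 45.7%, where 22.3% of all genes did so, and above both for 1 member, where 24.8% did so.

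By DESeq2, a second count test, 8 members were lower and 1 was higher at an adjusted p under 0.05, against 7.04% of all genes lower and 7.34% higher. These were Pcna, Tyms, Rrm2, Rrm1, Pole, Rfc5, Pola1 and Mcm6 on the lower side and Chaf1a on the higher. The authors' deposited table rests on the same libraries, and the submitters list DESeq2 among their tools. A match with that table is therefore no separate support. It gives an adjusted p under 0.05 to 8 members, the same 8 that were lower by DESeq2. Of its 14502 genes with an adjusted p, 6.14% are lower at that level. None of the 35 carries the change mark of the authors' deposited table, which 8.64% of those genes do. No marked gene there has a log2 fold change under 1 in size, and no member reaches that size. The size of the difference depended on the WT library it was taken from. Without WT replicate 1 the members' median log2 fold change was -0.19 and 22 members were below 0. Without WT replicate 2 these values were -0.57 and 32. The medians over all genes in these fits were 0.09 and 0.13. The summed level of the 35 was 4092 and 4491 CPM in RingKO against 6361 and 5022 CPM in WT libraries, and 29 members were higher in WT replicate 1 than in WT replicate 2.

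**Figure D2:**
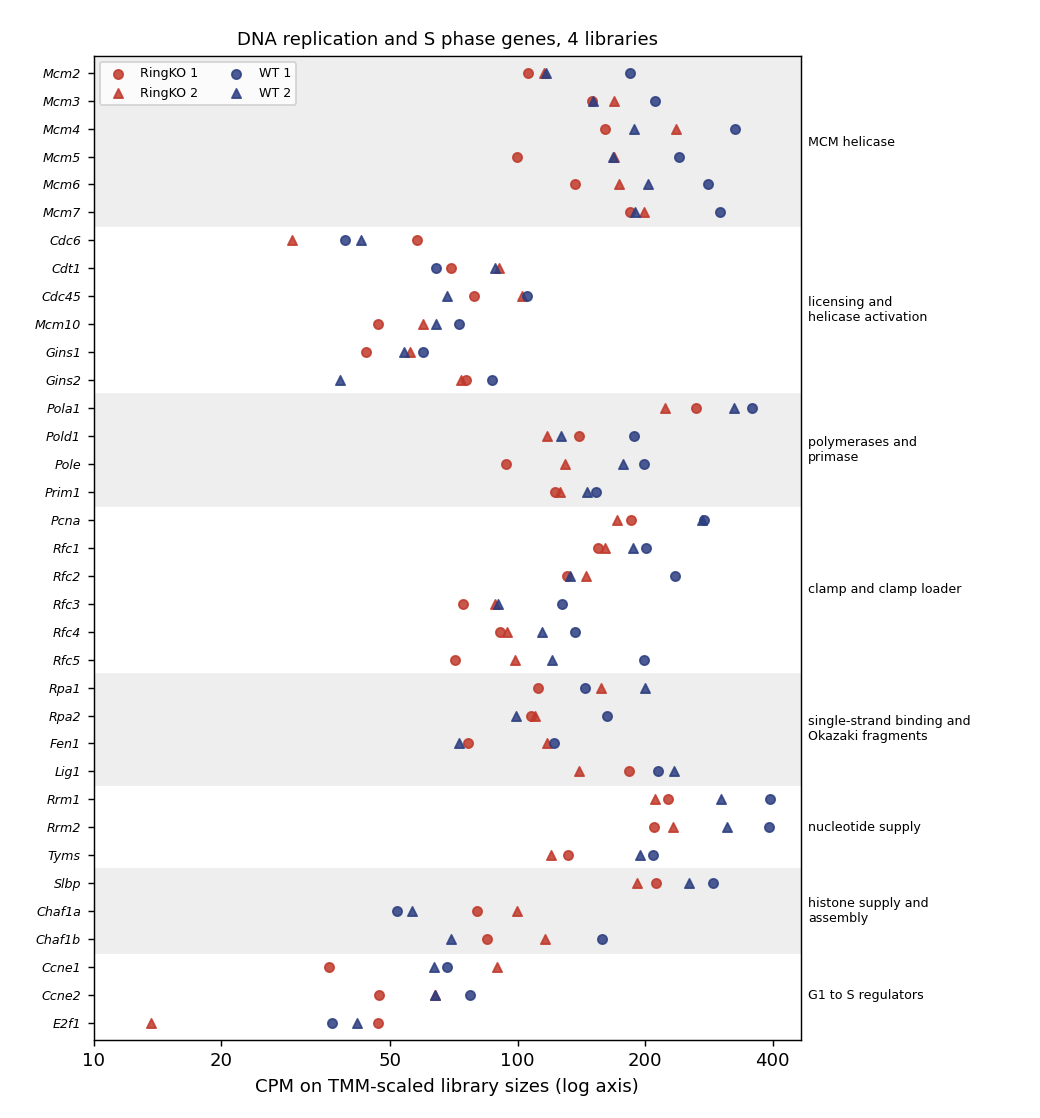
Level of each member in CPM (horizontal log axis) in the 2 RingKO libraries (red) and the 2 WT libraries (blue), with circles for replicate 1 and triangles for replicate 2 and members grouped by role. For Rrm1, Rrm2, Tyms, Pcna and Pole both red points lie left of both blue points, and for Chaf1a both lie right of them, while the points of the licensing genes mix.

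Nucleotide supply was the role in which every member, 3 of 3, was lower at an unadjusted p under 0.05, where 8.16% of all genes were. Rrm1, the large subunit of ribonucleotide reductase, which makes deoxynucleotides, had 227 and 211 CPM in RingKO against 394 and 302 CPM in WT libraries. Its small subunit Rrm2, made in S phase, had 210 and 232 CPM in RingKO against 391 and 312 CPM in WT libraries. Both RingKO libraries lay below both WT libraries for each. Tyms, thymidylate synthase, had 132 and 120 CPM in RingKO against 209 and 194 CPM in WT libraries, again with no overlap. The log2 fold changes were -0.67 ± 0.20 for Rrm1, -0.67 ± 0.19 for Rrm2 and -0.68 ± 0.20 for Tyms (SE), or a WT level 1.59, 1.59 and 1.60 times that of RingKO. The unadjusted p were 0.00853, 0.00742 and 0.00767 and the edgeR adjusted p 0.161, 0.158 and 0.158. Summed over the 3 genes, the level was 568 and 564 CPM in RingKO against 994 and 808 CPM in WT libraries.

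Among the clamp and clamp loader genes, 5 of 6 had no overlap between genotypes, all lower in RingKO. Of all genes tested 22.3% lay lower without overlap, and of the short abundant genes described below 48.0%. Pcna, the sliding clamp that tethers the polymerases, had 185 and 172 CPM in RingKO against 276 and 272 CPM in WT libraries. Its replicates lay close together in both genotypes, and the log2 fold change was -0.62 ± 0.18 (SE; unadjusted p = 0.008, edgeR adjusted p = 0.159). Rfc5, a small subunit of the loader that opens the clamp, had 71.1 and 98.6 CPM in RingKO against 199 and 120 CPM in WT libraries. It had the largest fitted difference of the members, -0.91 ± 0.30 (SE), with widely spread WT libraries and an edgeR adjusted p of 0.188. Rfc1, the large subunit of the loader, had 155 and 161 CPM against 200 and 187 CPM, with an unadjusted p of 0.154. For the loader subunits Rfc2, Rfc3 and Rfc4 the log2 fold changes were -0.41, -0.41 and -0.43, each short of an unadjusted p of 0.05, and Rfc2 was the member of this group whose libraries overlapped.

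Of the polymerase and primase genes, 2 of 4 were lower at an unadjusted p under 0.05, where 8.16% of all genes were. Pole, the catalytic subunit of the leading-strand polymerase epsilon, had 94.1 and 130 CPM in RingKO against 199 and 177 CPM in WT libraries. Its log2 fold change was -0.75 ± 0.23 (SE), with an unadjusted p of 0.0111 and an edgeR adjusted p of 0.174. Pola1, the catalytic subunit of the polymerase that starts each new strand, had 263 and 223 CPM in RingKO against 357 and 323 CPM in WT libraries. The difference was -0.48 ± 0.18 on the log2 scale (SE; unadjusted p = 0.0281). Prim1, the primase subunit that lays down RNA primers, had 123 and 126 CPM against 153 and 146 CPM, a small gap with no overlap (log2 fold change -0.27 ± 0.20, unadjusted p = 0.225). Pold1, of the lagging-strand polymerase delta, overlapped between genotypes, at 139 and 117 CPM in RingKO against 189 and 126 CPM in WT libraries.

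The MCM helicase genes all had a log2 fold change below 0, with a median of -0.41. At an unadjusted p under 0.05, 1 of 6 was lower, where 8.16% of all genes were. Mcm6 had 137 and 173 CPM in RingKO against 281 and 203 CPM in WT libraries (log2 fold change -0.64 ± 0.23, SE; unadjusted p = 0.0232). Mcm5 had 99.9 and 169 CPM in RingKO against 240 and 168 CPM in WT libraries, so that RingKO replicate 2 and WT replicate 2 were at like levels (-0.60 ± 0.29, unadjusted p = 0.0716). Mcm4 had 161 and 236 CPM in RingKO against 327 and 189 CPM in WT libraries, with its RingKO values on both sides of the lower WT value. Mcm4 had a log2 fold change of -0.37 ± 0.29 (SE). For Mcm2 the log2 fold change was -0.44 ± 0.26, for Mcm7 -0.35 ± 0.24 and for Mcm3 -0.18 ± 0.23 (SE), none with an unadjusted p under 0.05. WT replicate 1 held the highest of the 4 values for every helicase subunit, and the summed level was 838 and 1062 CPM in RingKO against 1543 and 1016 CPM in WT libraries. Without WT replicate 1 the log2 fold changes of Mcm3, Mcm4 and Mcm7 were 0.091, 0.085 and 0.029.

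Genes that load and activate the helicase showed no common direction, and none of the 6 had an unadjusted p under 0.05. Cdc6, a loading factor, had 57.9 and 29.4 CPM in RingKO against 39.1 and 42.7 CPM in WT libraries, so that the RingKO libraries lay on either side of WT. Cdt1, its partner in loading, had 69.7 and 90.5 CPM in RingKO against 64.2 and 88.4 CPM in WT libraries. Cdc45, a subunit of the active helicase, had 79.1 and 103 CPM against 105 and 68.1 CPM. For these 3 the log2 fold changes were 0.09 ± 0.47, 0.07 ± 0.30 and 0.07 ± 0.30 (SE), so the errors exceed the values. Mcm10, needed to start the helicase, had 46.8 and 59.9 CPM in RingKO against 72.9 and 64.1 CPM in WT libraries, with no overlap (-0.36 ± 0.33, unadjusted p = 0.302). The GINS subunits Gins1 and Gins2 had log2 fold changes of -0.19 ± 0.36 and 0.26 ± 0.40 (SE). The summed level of the 6 was 373 and 412 CPM in RingKO against 428 and 355 CPM in WT libraries, which overlap.

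Single-strand binding and Okazaki fragment genes gave 0 of 4 with an unadjusted p under 0.05. Lig1, the ligase that joins Okazaki fragments, came nearest, at 183 and 140 CPM in RingKO against 214 and 234 CPM in WT libraries (log2 fold change -0.48 ± 0.21, SE; unadjusted p = 0.0503). Its groups did not overlap. Fen1, the nuclease that trims Okazaki fragments, had 76.5 and 118 CPM in RingKO against 122 and 72.7 CPM in WT libraries, with complete overlap. Rpa1 and Rpa2, subunits of the protein that coats single-stranded DNA, had log2 fold changes of -0.35 ± 0.26 and -0.27 ± 0.27 (SE).

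Histone supply and assembly held the member that was higher at an unadjusted p under 0.05. Chaf1a, the large subunit of the CAF-1 chaperone that places histones on new DNA, had 80.2 and 99.6 CPM in RingKO against 52.0 and 56.4 CPM in WT libraries. Both RingKO libraries lay above both WT libraries, and the log2 fold change was 0.73 ± 0.29 (SE; unadjusted p = 0.0366, edgeR adjusted p = 0.264), or 1.66-fold. With any of the 4 libraries left out, its unadjusted p was no longer under 0.05. Chaf1b, which encodes the middle subunit of the same chaperone, overlapped, at 84.6 and 116 CPM in RingKO against 158 and 69.7 CPM in WT libraries. Slbp, which binds histone mRNA, had 212 and 191 CPM in RingKO against 289 and 253 CPM in WT libraries, with no overlap (-0.42 ± 0.18, unadjusted p = 0.0486).

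None of the 3 G1 to S regulators had an unadjusted p under 0.05, and E2f1 and Ccne1 had widely spread RingKO libraries. E2f1, a transcription factor that drives S phase genes, had 46.8 and 13.7 CPM in RingKO against 36.5 and 41.7 CPM in WT libraries. RingKO replicate 2 alone was low, and the log2 fold change of -0.37 carried an SE of 0.63. Without RingKO replicate 2 it was 0.25. Ccne1, which encodes cyclin E1, had 35.9 and 89.5 CPM in RingKO against 68.3 and 63.4 CPM in WT libraries, on both sides of WT. Ccne2, for cyclin E2, had 47.0 and 64.0 CPM against 77.1 and 63.7 CPM (-0.34 ± 0.33, unadjusted p = 0.331).

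**Figure D3:**
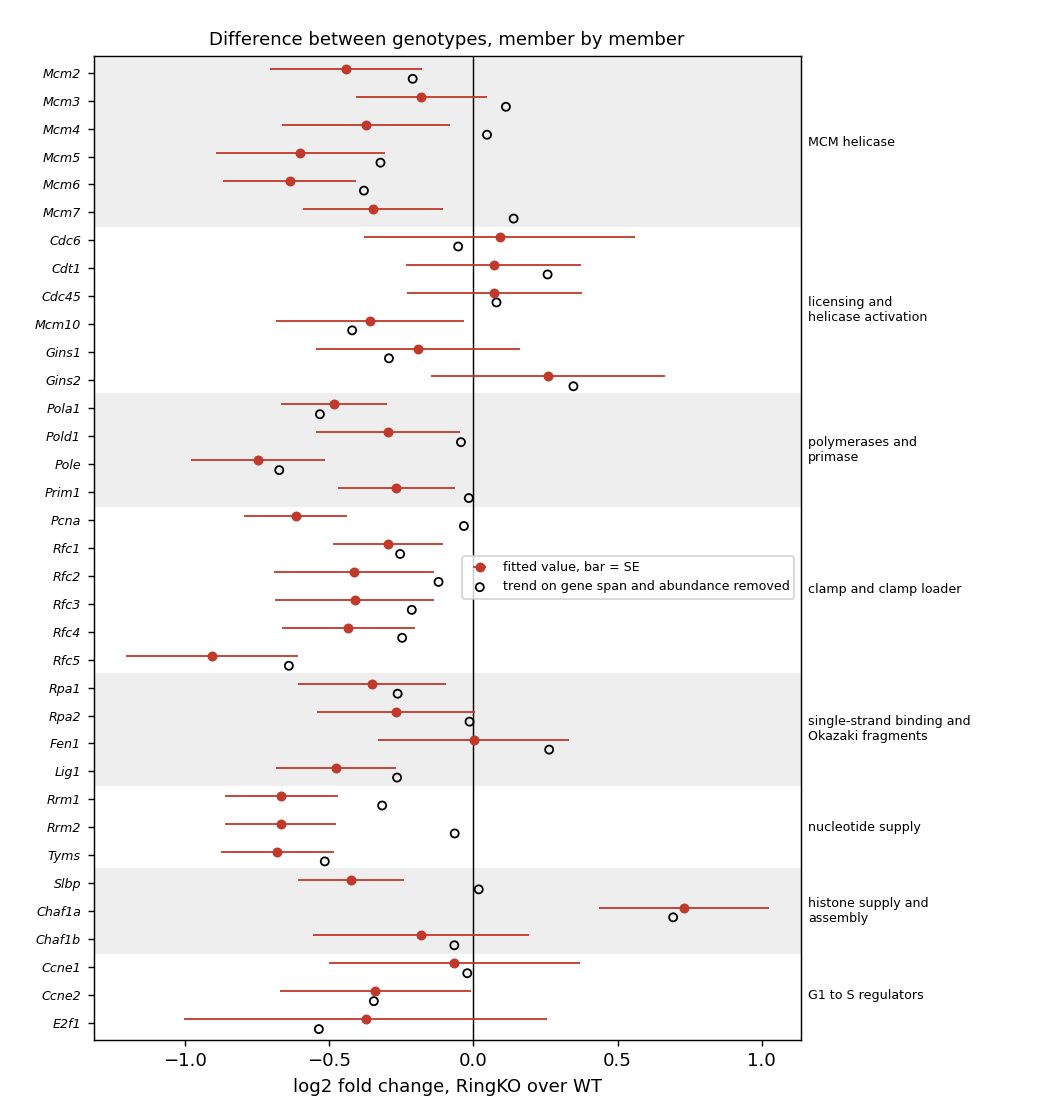
Log2 fold change of RingKO over WT for each member (horizontal axis), grouped by role. Red points with bars are fitted values with SE, from -0.91 for Rfc5 to 0.73 for Chaf1a, and open circles are the values with a trend on gene span and abundance removed, which lie closer to 0 for 26 of 35 members.

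Further genes of replication and the cell cycle came from lists of other members of these pathways. Of 55 other replication genes 0 passed over all genes tested, and the median log2 fold change was -0.32. At an unadjusted p under 0.05, 9 (16.4%) were lower and 0 higher, where 8.16% of all genes were lower and 8.47% higher. Orc5, of the complex that marks origins, had 68.2 and 47.7 CPM in RingKO against 108 and 115 CPM in WT libraries (edgeR adjusted p = 0.172). Dctpp1, which clears modified nucleotides, had 95.7 and 74.3 CPM against 145 and 132 CPM, and Hat1, a histone acetyltransferase, 126 and 135 CPM against 197 and 176 CPM. The most abundant were Mcmbp, an MCM binding protein, at 251 and 219 CPM in RingKO against 305 and 346 CPM in WT libraries, and the topoisomerase Top1, whose libraries overlapped at 285 and 221 CPM against 256 and 297 CPM. Over the 40 mitosis genes 15 (37.5%) were lower and 0 higher at an unadjusted p under 0.05, beside the same shares over all genes. Of the 40, 39 were below 0, where 47.7% of all genes were, with a median of -0.41. Ccnb2, a mitotic cyclin, had 151 and 135 CPM in RingKO against 281 and 254 CPM in WT libraries, with an edgeR adjusted p of 0.147. Ccna2, the cyclin of S phase and G2, had 204 and 156 CPM against 318 and 314 CPM, and Cenpa, the centromeric histone, 159 and 135 CPM against 253 and 254 CPM. Mki67, the Ki-67 proliferation marker, had 525 and 543 CPM in RingKO against 772 and 807 CPM in WT libraries, and Top2a, the topoisomerase of mitosis, 594 and 486 CPM against 707 and 793 CPM. All of these mitosis genes had no overlap between genotypes, and an adjusted p over 0.05 in edgeR.

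The 28 other G1 to S regulators had a median log2 fold change of 0.01. At an unadjusted p under 0.05, 8.16% of all genes were lower and 8.47% higher. Neither share was exceeded here, with 2 of the 28 (7.14%) lower and 2 (7.14%) higher. Those lower were Cdk4, a G1 kinase, at 259 and 208 CPM in RingKO against 438 and 316 CPM in WT libraries, and its partner Ccnd1, cyclin D1, at 305 and 297 CPM against 414 and 429 CPM. Ccnd2, cyclin D2, had 767 and 631 CPM against 985 and 854 CPM. Those higher each encode an inhibitor of cyclin-dependent kinases. Cdkn2a, which encodes the kinase inhibitor p16 and a separate product, p19, had 5.45 and 6.35 CPM in RingKO libraries and 0 counts in both WT libraries. Over the WT pair, 0 counts allow up to 0.533 CPM by a limit of 3 counts that covers counting error only. Counts per gene do not separate p16 from p19. Cdkn1c, which encodes p57, had 49.9 and 36.5 CPM in RingKO against 0.759 and 8.34 CPM in WT libraries. None passed the edgeR test over all genes, with adjusted p from 0.165 (Cdkn2a) to 0.329 (Ccnd2) for the 5 named. The fitted log2 fold changes of Cdk4, Ccnd1 and Ccnd2 were -0.69, -0.49 and -0.40. With a trend on gene span and abundance removed they were -0.005, 0.12 and 0.21. Cdkn1c, at 3.22, then stood at 3.12, and Cdkn2a, at 7.79, at 7.67. With 0 counts in both WT libraries, the size for Cdkn2a is not measured, and it was 6.49 by DESeq2 and 5.09 by limma-voom. Cdkn2a also entered the test through its RingKO counts alone, so its place among the 2 higher is no support for a difference.

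The members were set beside other short and abundant transcripts, because these also stood lower in RingKO. Transcript lengths were not used here, so short means a gene span on GRCm38.p6, introns included, below the 22.8 kb median of genes tested, and abundant means a mean level above the median gene, 53.8 CPM. Among 3024 short abundant genes other than members the median log2 fold change was -0.27, 23.5% were lower at an unadjusted p under 0.05, and 48.0% had both RingKO libraries below both WT libraries. The 23 short abundant members had a median of -0.35, with 4 (17.4%) lower at that p and 9 (39.1%) without overlap. Ribosomal protein genes, short and abundant as a class, had a median of -0.81, with 73 of 81 lower at an unadjusted p under 0.05, and genes of the respiratory chain a median of -0.73, with 64 of 84. Ribosomal protein genes have near-identical processed copies, and how shared reads were counted is not stated in the sources used here. Both medians were further from 0 than that of the members. Among 3487 long abundant genes other than members the median was -0.01 and 7.26% were lower at that p. The 10 long abundant members had a median of -0.48, and 5 were lower at that p, which were Rrm1, Tyms, Pole, Pola1 and Mcm6. The difference between the short and the long members was not tested.

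**Figure D4:**
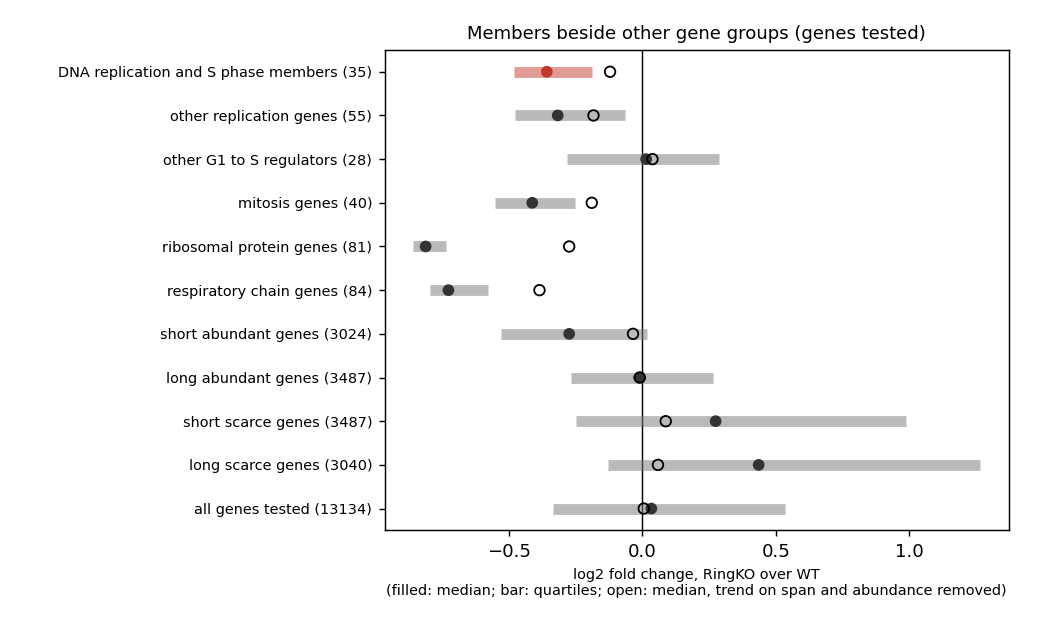
Log2 fold change of RingKO over WT (horizontal axis) by gene group, with the number of genes tested in brackets, medians as filled points, quartiles as bars and open circles for medians with the trend on gene span and abundance removed. The members' median of -0.36 lies between that of short abundant genes (-0.27) and those of respiratory chain (-0.73) and ribosomal protein genes (-0.81).

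The shift grew as abundant genes became shorter. Abundant genes other than members were ranked by span into 10 equal classes. In the shortest class, with spans up to 4.86 kb, the median log2 fold change was -0.42, and in the longest class, from 113.8 kb, it was 0.15. Of the 33 abundant members 25 lay below the median of the abundant genes of their span class and 8 above, and 11 lay below its lower quartile and 4 above its upper quartile. Pcna, at 3.90 kb, lay within the quartiles of its class, which ran from -0.67 to -0.13. Pola1, which spans 328 kb, lay at -0.48 where the quartiles ran from -0.10 to 0.43, and Tyms, at 35.1 kb, at -0.68 where they ran from -0.30 to 0.19.

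With a trend on span and abundance, fitted over all genes, taken out of the comparison, the members' median log2 fold change was -0.12, against 0.01 over all genes, and 26 members were below 0. At an unadjusted p under 0.05, 3 of the 35 members were then lower and 1 was higher. Of all 13134 genes, 382 were lower and 958 higher at that p in the same fit. Pole had a log2 fold change of -0.67 (unadjusted p = 0.0182), Pola1 of -0.53 (0.0184) and Tyms of -0.52 (0.0283), while Chaf1a stood at 0.69 (0.0447). None passed the edgeR test over all genes, with adjusted p from 0.364 to 0.47 for these 4. Pcna and Rrm2, among the members of lowest p before the trend was taken out, then stood at -0.03 and -0.06, and Slbp, Mcm3, Mcm4 and Mcm7 had values above 0. The medians of ribosomal protein, respiratory chain and mitosis genes were then -0.27, -0.39 and -0.19. Of the 40 mitosis genes 4, and of the 55 other replication genes 1, were then lower at an unadjusted p under 0.05.

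**Figure D5:**
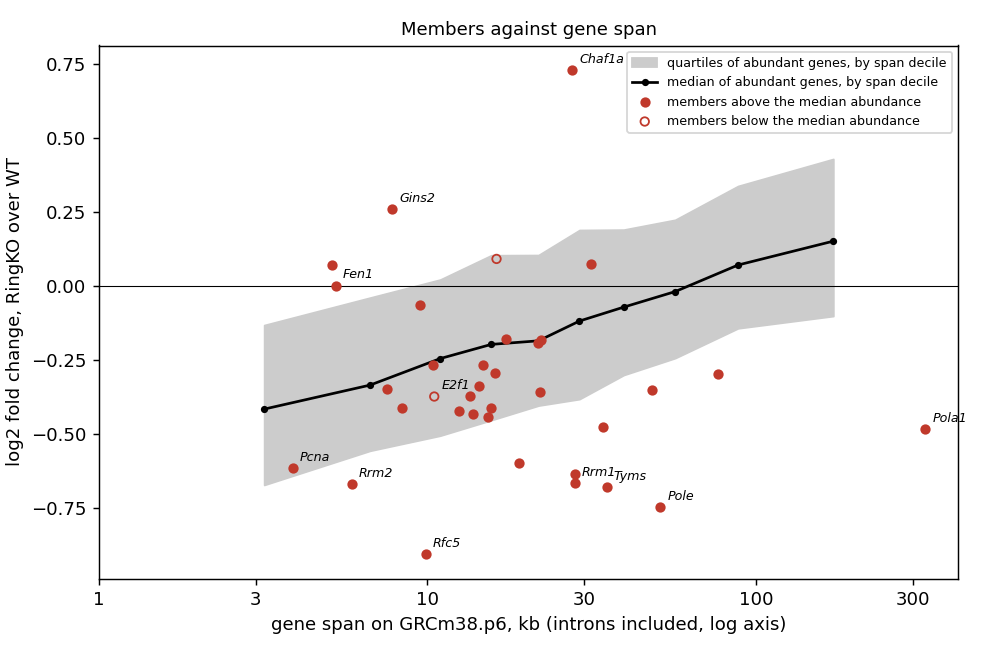
Log2 fold change of RingKO over WT (vertical axis) against gene span in kb (horizontal log axis), with members in red and the median and quartiles of other abundant genes in 10 classes of span in black and grey. The black line rises from -0.42 in the shortest to 0.15 in the longest class, Rfc5, Pole, Tyms, Rrm1 and Pola1 are among the members below the grey band, and Chaf1a and Gins2 among those above it.

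Markers of some other cells of the follicle and skin also differed between the genotypes, while those of epidermal differentiation did not. The 5 epidermal markers with values summed to 108 and 136 CPM in RingKO against 86.2 and 131 CPM in WT libraries, which overlap. Of the 3 tested, 0 had an unadjusted p under 0.05 in edgeR. Of 10 hair matrix and hair lineage markers, which mark the dividing and differentiating cells of the follicle base, 6 were lower in RingKO at an unadjusted p under 0.05 and 8 had no overlap on the lower side. Over all genes these shares were 8.16% and 22.3%. The median log2 fold change of the 10 markers was -0.93. With the trend on span and abundance removed it was -0.36, and 3 of the markers were lower at that p. Their summed level was 1722 to 1905 CPM in RingKO against 2850 to 3571 CPM in WT libraries, and none was at 0 in either genotype. Shh, a signal of the hair matrix, fell most of the 10, with 9.89 and 2.12 CPM in RingKO against 52.4 and 40.4 CPM in WT libraries. Hoxc13 was higher without overlap, at 77.9 and 75.8 CPM against 59.2 and 68.7 CPM (edgeR unadjusted p = 0.388). Lef1 overlapped between genotypes. The 9 leukocyte markers summed to 195 to 385 CPM in RingKO against 59.2 to 68.7 CPM in WT libraries, with Cd207 at 0 in both genotypes and Cd3e at 0 in RingKO. For the 6 dermal fibroblast markers the sums were 196 to 321 CPM in RingKO against 639 to 772 CPM in WT libraries, with none at 0. Dcn made up most of each sum, at 272 and 159 CPM against 593 and 430 CPM, while the collagen genes Col1a1, Col1a2 and Col3a1 overlapped between genotypes and were high in WT replicate 2 alone. Lum was lower without overlap, at 0.202 and 0.124 CPM against 4.94 and 1.67 CPM. Pdgfra went the other way, also without overlap, at 6.66 and 12.2 CPM in RingKO against 0.380 and 6.34 CPM in WT libraries (edgeR unadjusted p = 0.311). The 4 endothelial markers summed to 0.498 to 0.606 CPM in RingKO against 1.14 to 33.7 CPM in WT libraries, with Emcn at 0 in both. The 5 melanocyte markers summed to 26.9 to 35.9 CPM against 45.9 to 72.7 CPM, with Tyrp1 at 0 in WT. Their part in the levels of the replication genes was not tested.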

How the data were processed

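RNA-seq of 4 libraries was analysed: 2 RingKO (Ring1a/b-/-) and 2 WT. The authors deposited whole-number counts per gene symbol, without normalization. Build mm9 and, among other tools, HTSeq 0.7.2, TopHat2 2.1.1 and DESeq2 are listed in the submitters' processing notes. Annotation, strand use and duplicate removal are not stated in the sources used here, and overlapping genes may therefore share reads. The comparison table that the authors deposited holds, per the file headers, log2 fold changes and p-values; its marks, printed here, are the authors' own.

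The deposited counts went into edgeR 4.0.16 under R 4.3.3 (filterByExpr, TMM, robust glmQLFit, glmQLFTest, genotype as the only term), with Benjamini-Hochberg adjustment over 13134 genes at 0.05, and SE as the absolute log2 fold change divided by the root of the F statistic. Alternatives used DESeq2 1.42.0, limma 3.58.1 (voom), other scaling and filters, a replicate term, each library left out, and a loess trend (span 0.5) on log2 gene span and mean log CPM. Gene spans (99.5% of genes tested) and promoters come from RefSeq GRCm38.p6 tables, matched by symbol. Members and lists were chosen with earlier results of these data known. Members given per library were those with an unadjusted p under 0.05, plus the largest change and the highest level in each role; of each other pathway list, the 3 of lowest p and the 2 of highest level. Other members given per library were chosen after their values were seen. The Ring1b peak lists and the normalized table were not used here. Depth, 2785843 to 7740945 counts, sets the counting error; PCR copies are not independent molecules.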

Additional observations from a re-analysis of the deposited data

How the results depend on the processing

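The count of genes called over all genes, 8, was 1888 by DESeq2, 802 with no low-count filter, 1 with at least 1 CPM in 2 libraries, 0 by limma-voom (779 higher and 1177 lower at an unadjusted p under 0.05), 4 with the trend on gene span and abundance removed, and 0 to 60 with a library left out. Members called at an adjusted p under 0.05 were 0 with all libraries in edgeR, 9 by DESeq2, 3 with no low-count filter (Rfc5, Rrm1 and Rrm2) and 0 with any library left out. Members lower at an unadjusted p under 0.05, 9 with all libraries, were 3 with the trend removed, 5 without either RingKO replicate and 5 to 17 with a library left out, the 17 without WT replicate 2. Members higher at that p, 1 with all libraries (Chaf1a), were 0 by limma-voom, 0 with the replicate block and 0 to 1 with a library left out, where the 1, without WT replicate 1, was Gins2. Chaf1a thus missed that p with each library left out. The members' median log2 fold change, -0.36, was -0.57 to -0.19 with a library left out and -0.12 with the trend removed. The median of all genes was 0.09 without WT replicate 1 and 0.13 without WT replicate 2. With upper-quartile scaling the median of all genes was 0.12 in place of 0.03, and that of the members -0.27. Replicate numbers are not stated to pair libraries, and the deviations of same-numbered libraries correlated at -0.14 across genes. The replicate block gave 416 genes called over all genes and 0 members. Crossed pairing, chosen after seeing the data, gave 8 and 0.

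Some signs changed, also of values with a low p such as that of Mki67. With the trend removed the log2 fold changes were 0.11 for Mcm3, 0.047 for Mcm4, 0.14 for Mcm7, 0.018 for Slbp, -0.053 for Cdc6, 0.12 for Ccnd1, 0.21 for Ccnd2, 0.0011 for Mki67, 0.011 for Top1 and 0.050 for Top2a. Cdc6 was -0.14 by limma-voom, Ccne1 0.020 with upper-quartile factors, and Fen1 -0.0034 with at least 1 CPM in 2 libraries, -0.00041 by DESeq2 and -0.00030 with DESeq2 size factors. With a library left out the ranges were -0.89 to 0.44 for Ccne1, -0.22 to 0.43 for Cdc45, -0.48 to 0.49 for Cdc6, -0.15 to 0.30 for Cdt1, -0.67 to 0.53 for Chaf1b, -1.51 to 0.25 for E2f1, -0.36 to 0.43 for Fen1, -0.24 to 0.98 for Gins2, -0.42 to 0.091 for Mcm3, -0.73 to 0.085 for Mcm4, -0.66 to 0.029 for Mcm7, -0.58 to 0.024 for Pold1, -0.79 to 0.061 for Rfc2, -0.60 to 0.14 for Rpa2 and -0.32 to 0.033 for Top1. The cause was not tested. Of 650 alternative values of single genes 580 kept their direction and their side of the threshold, 35 newly passed and 35 changed sign. With 2 libraries a genotype, an exact permutation test of a single gene cannot give a p below 0.333.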
